A study of Mus musculus with 12 samples.

Results

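The 9 genes described here build, regulate and break down glycogen, the branched glucose store of the cell: Gyg, Ugp2, Gys1, Gbe1, Ppp1r3b, Ppp1r3c, Pygl, Pygb and Pygm. They were taken by symbol from a count table of 32285 genes, where each of the 9 had 1 entry and passed the filter on low counts. The set was proposed with the difference between the genotypes already known, so their values in that comparison are a description and carry no p-value. Expression was measured by bulk RNA sequencing in micro-dissected nucleus pulposus, the soft gelatinous centre of an intervertebral disc, from the tails of 12-month-old C57BL/6-129/SvEv mice. The 6 WT mice and 6 Opa1cKO mice each gave 1 library, and both genotypes received tamoxifen at 100 mg/kg on 3 consecutive days. In Opa1cKO mice, AcanCre, a tamoxifen-activated Cre driven in cells that express aggrecan, in disc and in cartilage, deleted Opa1, a GTPase that fuses inner mitochondrial membranes, at 3 months of age, and tissue was taken 9 months later. Cells of the tissue that do not express aggrecan keep the gene, and the sources used here do not say whether WT mice carried the Cre or the floxed allele.

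Library totals ran from 37268242 to 56618266 counts. Opa1 stood at 69.3 to 118 CPM (counts scaled to a common library size with the trimmed mean of M-values, TMM) in WT and at 30.2 to 47.7 CPM in Opa1cKO, with no overlap. By label, WT 1 to 4 and Opa1cKO 5 and 6 were female, and WT 5 and 6 and Opa1cKO 1 to 4 male. Sex-linked reads went against the labelled sex in 4 libraries, WT 4, WT 5, WT 6 and Opa1cKO 4. By reads, the males were WT 4 and Opa1cKO 1 to 3. Sex was thus unevenly spread over the genotypes either way, so genotype and sex are partly confounded. Values without the 4 libraries are given for the called glycogen genes. Marker calls, counts of ranges apart and glycolysis counts rest on all 12 alone. The summed level of 10 nucleus pulposus markers was 19830 to 28200 CPM in WT and 16560 to 21950 CPM in Opa1cKO, and none of the 9 that were tested passed (edgeR; 3 had an unadjusted p under 0.05). Brachyury (T) averaged 2719 and 2882 CPM, Acan, which encodes aggrecan, 13062 and 8628 CPM, Cd24a 3603 and 2734 CPM, and Foxa2, Noto and Shh had means below 10 CPM in both. Of 6 macrophage markers, Cd163 and Csf1r fell and Cd68 rose (log2 -3.98, -0.88 and 1.28; edgeR adjusted p = 4.45e-05, 0.00468 and 0.000152), while Adgre1, C1qa and C1qb were at or near 0 and were not tested. The summed macrophage level was 103 to 195 CPM in WT and 96.3 to 116 CPM in Opa1cKO, and the part of these marker differences in the results on glycogen genes was not tested. The summed level of 12 skeletal muscle markers was 2.28 to 28.0 CPM in WT and 3.22 to 29.2 CPM in Opa1cKO, with none of the 12 at 0 in every library. That of 5 markers of tendon and of the annulus, the outer ring of the disc, was higher. It was 170 to 355 CPM in WT and 250 to 512 CPM in Opa1cKO, and none of the 4 tested passed (edgeR). The part of these tissues in the results on glycogen genes was not tested. In bulk tissue, fewer cells of a type and less RNA per cell cannot be told apart.

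Glycogen synthesis starts from glucose 1-phosphate, which UDP-glucose pyrophosphorylase (Ugp2) turns into UDP-glucose. Glycogenin (Gyg) primes the chain, glycogen synthase (Gys1 outside the liver) lengthens it, and the branching enzyme (Gbe1) adds branches. Protein phosphatase 1, brought to the particle by targeting subunits such as Ppp1r3b and Ppp1r3c, activates synthase and inactivates phosphorylase, whereas phosphorylase kinase activates phosphorylase, the enzyme of breakdown, which has liver (Pygl), brain (Pygb) and muscle (Pygm) forms. Hypoxia-inducible factor is known to raise several of these genes in other cells, and the nucleus pulposus is a tissue of low oxygen that lives largely on glycolysis.

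Promoters were examined for both forms of the core of the hypoxia response element, ACGTG and GCGTG, on either strand (reverse complements CACGT and CACGC), because 4 of the genes were lower together in Opa1cKO. The RefSeq table (GRCm38.p6) held 9 windows of 250 bases before a start for 8 of the 9 genes, 2 of them for Ugp2 and none for Ppp1r3b. ACGTG was in 5 of the 9 windows, 1 each of Ppp1r3c, Pygl, Pygb, Pygm and Ugp2, where 16.6% of all 32851 windows hold it. GCGTG was in 6 of the 9, in the same 5 and in that of Gyg, where 28.2% of all windows hold it and 38.6% hold either form. The windows of Gys1 and Gbe1 had neither. So the letters occurred in windows of genes that differed between genotypes and of genes that did not, and a match is a description of the sequence, not a site. The Pygl window lies inside the GENCODE span of that gene (70190811 to 70231488), so its RefSeq start is not the outermost GENCODE start. It also overlaps an exon of F730035M05Rik, a noncoding gene on the opposite strand. The Gyg window (20155117 to 20155366) lies mostly within the GENCODE span of that gene, which ends at 20155317. For both Ugp2 windows, bases shortly after the RefSeq start were not found in GENCODE transcripts of Ugp2. The Ugp2 window with matches (21371268 to 21371517) lies outside the GENCODE span of the gene, which ends at 21371201. Shown, on the gene's strand and without bases that GENCODE annotates as the gene's own untranslated region, are the window of Gbe1 (plus strand, chr16:70313699-70313948), without a match to either form, that of Ppp1r3c (minus strand, chr19:36736654-36736854), with matches to ACGTG that begin 189 and 104 bases before the start, and that of Pygl (minus strand, chr12:70227684-70227933), with 1 such match that begins 131 bases before it; capitals mark ACGTG or CACGT, and in Ppp1r3c the second match is a palindrome read on both strands.
Gbe1: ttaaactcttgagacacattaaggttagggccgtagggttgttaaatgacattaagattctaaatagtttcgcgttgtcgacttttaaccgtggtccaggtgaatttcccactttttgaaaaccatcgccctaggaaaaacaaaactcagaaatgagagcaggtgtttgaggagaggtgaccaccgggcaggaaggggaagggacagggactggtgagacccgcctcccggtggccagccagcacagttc
Ppp1r3c: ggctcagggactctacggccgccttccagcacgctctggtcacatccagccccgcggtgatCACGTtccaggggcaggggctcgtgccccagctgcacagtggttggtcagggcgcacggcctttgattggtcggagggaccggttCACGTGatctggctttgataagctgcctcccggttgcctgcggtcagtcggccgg
Pygl: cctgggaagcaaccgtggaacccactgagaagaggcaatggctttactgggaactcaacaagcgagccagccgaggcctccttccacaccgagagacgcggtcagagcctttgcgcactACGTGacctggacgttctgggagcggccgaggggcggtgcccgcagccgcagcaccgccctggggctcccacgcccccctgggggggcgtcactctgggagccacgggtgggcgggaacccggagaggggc

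In WT nucleus pulposus the targeting subunit Ppp1r3c was by far the most abundant of the 9 transcripts per length. On the scale of TPM (transcripts scaled to a fixed sum per library), which corrects for gene length, Ppp1r3c averaged 3623 ± 531 (SD, n = 6), followed by Ugp2 at 324 ± 38.6, Ppp1r3b at 247 ± 37.5, Gys1 at 139 ± 10.5, Gyg at 96.8 ± 12.6, Pygl at 77.9 ± 6.69, Gbe1 at 70.8 ± 7.37, Pygb at 23.0 ± 2.59 and Pygm at 2.77 ± 0.904. The WT ranges of Ugp2 and Ppp1r3b overlapped, as did those of Gyg and Pygl and those of Pygl and Gbe1, although Ugp2 was above Ppp1r3b in 6 of 6 libraries and Pygl above Gbe1 in 5 of 6. In Opa1cKO, Ppp1r3c was again first at 2209 ± 359 TPM and Pygm last at 2.75 ± 0.802 TPM. Gyg, at 98.5 ± 14.1 TPM, stood above Gys1, at 80.8 ± 10.04 TPM, in 5 of 6 Opa1cKO libraries, with overlapping ranges, whereas Gys1 was above Gyg in 6 of 6 WT libraries.

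**Figure D1:**
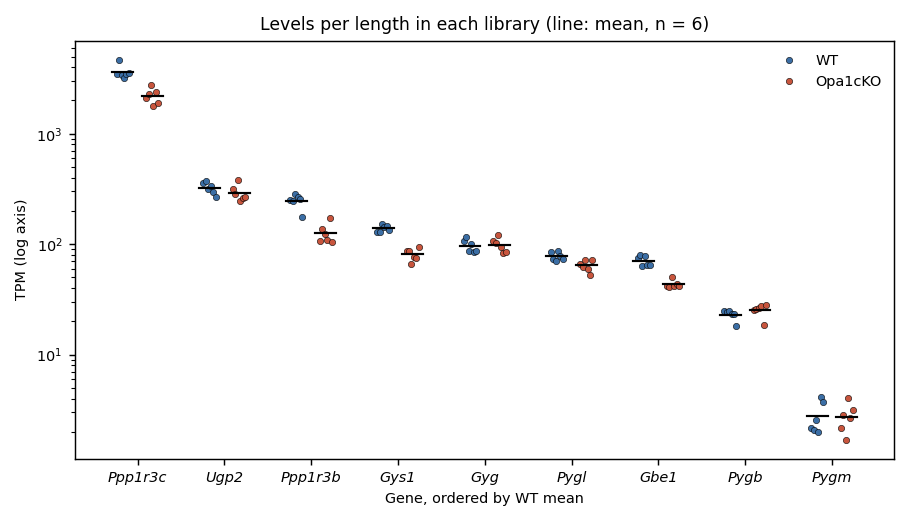
TPM of the 9 glycogen genes (log axis) in each of the 6 WT and 6 Opa1cKO libraries, ordered by the WT mean, with lines at the means. Ppp1r3c lies at 1788 TPM or more in every library and Pygm between 1.70 and 4.10 TPM.

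The genes of chain elongation and branching were lower in Opa1cKO, with no overlap between the genotypes. Glycogen synthase Gys1 (ENSMUSG00000003865, chromosome 7, 45434844 to 45456619, plus strand of mm10) had 144, 135, 162, 141, 151 and 143 CPM in WT 1 to 6 and 89.3, 87.2, 70.7, 81.7, 80.2 and 93.0 CPM in Opa1cKO 1 to 6. The 2 genotypes were well apart, 146 ± 9.39 against 83.7 ± 7.95 CPM, a log2 ratio (Opa1cKO over WT, fitted) of -0.79 with a standard error (SE) of 0.0829. Ruvbl2, on the opposite strand, overlaps 3253 bases of the Gys1 gene. Its means were 21.2 CPM in WT and 18.03 CPM in Opa1cKO, here scaled to library totals without TMM. Since the sources used here do not give the strand setting of the counting, reads of the 2 genes in that stretch cannot be told apart. The branching enzyme Gbe1 (ENSMUSG00000022707, chromosome 16, 70313949 to 70569716, plus strand) had 93.4, 94.5, 74.7, 85.9, 75.1 and 76.1 CPM in WT and 48.2, 46.3, 60.2, 49.5, 51.8 and 46.0 CPM in Opa1cKO, a log2 ratio of -0.70 (SE 0.0972). Opa1cKO 3 was the highest of its genotype for Gbe1 and the lowest for Gys1.

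Both phosphatase targeting genes were lower as well. Ppp1r3c, also called protein targeting to glycogen (ENSMUSG00000067279, chromosome 19, 36731731 to 36736653, minus strand), had 2215, 2815, 2059.7, 1785, 2037 and 2124 CPM in WT and 1237, 1310.2, 1701, 1075, 1455 and 1073 CPM in Opa1cKO. WT 4 and Opa1cKO 3 were the nearest libraries across the genotypes, and the log2 ratio was -0.73 (SE 0.150). Ppp1r3b, the subunit best known from liver (ENSMUSG00000046794, chromosome 8, 35375739 to 35388139, plus strand), had 367, 340.5, 390.4, 341, 340.3 and 242 CPM in WT and 144, 180, 174, 148, 240.03 and 135 CPM in Opa1cKO. Its ranges met closely, since WT 6 was far below the other WT libraries and Opa1cKO 5 far above the other Opa1cKO libraries, and the log2 ratio was -0.90 (SE 0.140). Over the 24 alternative settings it ranged from -1.06 to -0.75.

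The genes that supply and prime the chain overlapped between genotypes. Glycogenin Gyg (ENSMUSG00000019528, chromosome 3) was at 43.0 to 59.9 CPM in WT and 41.3 to 63.3 CPM in Opa1cKO, with medians of 46.9 and 49.8 CPM and a log2 ratio of -0.02 (SE 0.131). Ugp2 (ENSMUSG00000001891, chromosome 11), whose UDP-glucose also feeds glycosaminoglycan synthesis, was at 183 to 257 CPM in WT and 166 to 265 CPM in Opa1cKO, a log2 ratio of -0.15 (SE 0.138). Opa1cKO 3 had the highest level of both genes among the Opa1cKO libraries. Without the 4 libraries of contradicted sex, Gyg stood at -0.36 and Ugp2 at -0.46, a fit in which all remaining WT libraries are labelled female, so that WT 1 to 3 are set against Opa1cKO 5 and 6.

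Pygl was lower in 5 of 6 Opa1cKO libraries than in any WT library, and Pygb and Pygm overlapped between genotypes. Liver-type Pygl (ENSMUSG00000021069, chromosome 12) had 138, 112, 106, 123, 116 and 113 CPM in WT and 99.1, 90.3, 112, 89.8, 80.9 and 102 CPM in Opa1cKO. Only Opa1cKO 3 reached into the WT range, and the log2 ratio was -0.31 (SE 0.0971). Brain-type Pygb (ENSMUSG00000033059, chromosome 2) was at 19.2 to 28.0 CPM in WT and 19.7 to 29.0 CPM in Opa1cKO, a log2 ratio of 0.12 (SE 0.124), which was -0.15 without the 4 libraries of contradicted sex. Muscle-type Pygm (ENSMUSG00000032648, chromosome 19) rested on 64 to 131 counts per library and was at 1.32 to 2.84 CPM in WT and 1.23 to 2.85 CPM in Opa1cKO. Its highest library in each genotype, WT 5 and Opa1cKO 4, was also the highest in summed skeletal muscle markers, at 28.0 and 29.2 CPM; the part of muscle RNA in Pygm was not tested.

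**Figure D2:**
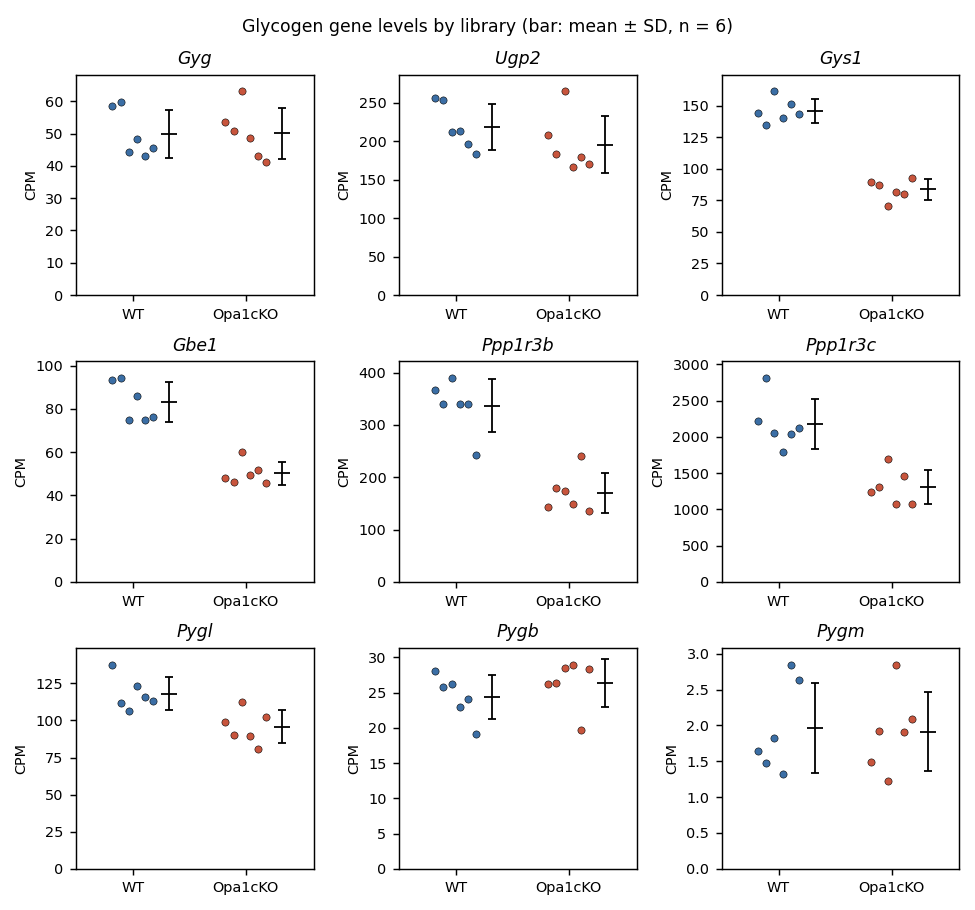
CPM of the 9 genes in the 6 WT and 6 Opa1cKO libraries (points), with mean ± SD at the right of each group and axes from 0. Gys1, Gbe1, Ppp1r3b and Ppp1r3c do not overlap between genotypes, while the other 5 genes do.

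Of the 9 genes, 4 passed an adjusted p of 0.05 in the fit across all genes (edgeR), all 4 lower in Opa1cKO, and the same 4 had ranges that did not overlap. Over the 15229 genes tested, 10.2% passed in either direction, 5.13% lower and 5.1% higher, and 6.41% had ranges apart, 3.64% with Opa1cKO lower. The choice of the genes used this comparison, so nothing is read from the count. The 9 had a median log2 ratio of -0.31 against 0.01 for all genes tested, with both synthesis genes and both targeting subunits at -0.70 or below and the 3 phosphorylases between -0.31 and 0.12. Without the 4 libraries of contradicted sex, Gys1 and Gbe1 passed, and Ppp1r3b and Ppp1r3c stood at -0.96 and -0.90 without passing, among 325 genes called in that smaller fit. Pygl passed as well in 5 of the 24 alternative settings: with sex taken from the reads, without a sex term, with DESeq2, with limma-voom and without Opa1cKO 3. For comparison, 6 of 9 genes of lower glycolysis passed, all lower, with a median of -0.75. A list of 10 genes joined Gpi1, which encodes glucose 6-phosphate isomerase, to hexokinase, phosphofructokinase and PFKFB genes. Of these 10, 5 passed, Gpi1 among them, all lower, and the median of the 10 was -0.33.

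The make-up of the phosphorylase pool was described per length. Pygl gave 75.1 ± 2.24% of summed phosphorylase TPM in WT (71.9 to 77.5%) and 69.6 ± 2.49% in Opa1cKO (65.3 to 72.1%; SD, n = 6 each), Pygb 22.2 ± 2.41% and 27.4 ± 1.84%, and Pygm 2.703 ± 0.953% and 3.03 ± 0.968%. The liver-type transcript was thus the main one in all 12 libraries. Gys1 stood at 1.35 ± 0.148 times the summed phosphorylase TPM in WT, 1.14 to 1.57 times, and at 0.884 ± 0.125 times in Opa1cKO, 0.654 to 1.02 times, without overlap. Gys1 relative to Gbe1 was at 1.99 ± 0.322 in WT and 1.89 ± 0.340 in Opa1cKO, so these values overlapped. These shares and ratios use the comparison the genes were chosen on and have no test.

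Other genes of glycogen metabolism were tested from a list of 36, of which 31 passed the filter on low counts. Among them 4 fell and 2 rose in Opa1cKO (edgeR adjusted p below 0.05), where 10.2% of all genes tested passed, and their median log2 ratio was -0.06 against 0.01. In 3 of the 6, Ppp1r3g, Epm2a and Phka1, the call held with any single library left out and without the 4 libraries of contradicted sex. The liver glycogen synthase gene Gys2 had at most 0.0418 CPM and was not tested, as were Ppp1r3a, Ppp1r1a, G6pc and G6pc2.

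A further targeting subunit, Ppp1r3g, showed the largest fall in the list. It had 7.77, 4.69, 6.62, 7.12, 6.24 and 5.29 CPM in WT and 1.29, 1.48, 1.04, 0.871, 1.02 and 1.31 CPM in Opa1cKO. Every Opa1cKO library was below every WT library, with a log2 ratio of -2.39 (SE 0.195, edgeR adjusted p = 8.04e-06). Per length it was a minor subunit in both genotypes, at 0.279 ± 0.0730% of the summed TPM of the 7 targeting genes in WT and 0.0866 ± 0.0232% in Opa1cKO, where Ppp1r3c made up 92.5 ± 1.41% and 93.2 ± 0.802%. Ppp1r3b held 6.39 ± 1.26% and 5.34 ± 0.837%, and Ppp1r3e and Ppp1r3f held at most 0.846% and 0.867% in any library. Ppp1r3d and Ppp1r3f did not pass, at 1.19 and 0.20 (edgeR adjusted p = 0.0886 and 0.378).

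**Figure D3:**
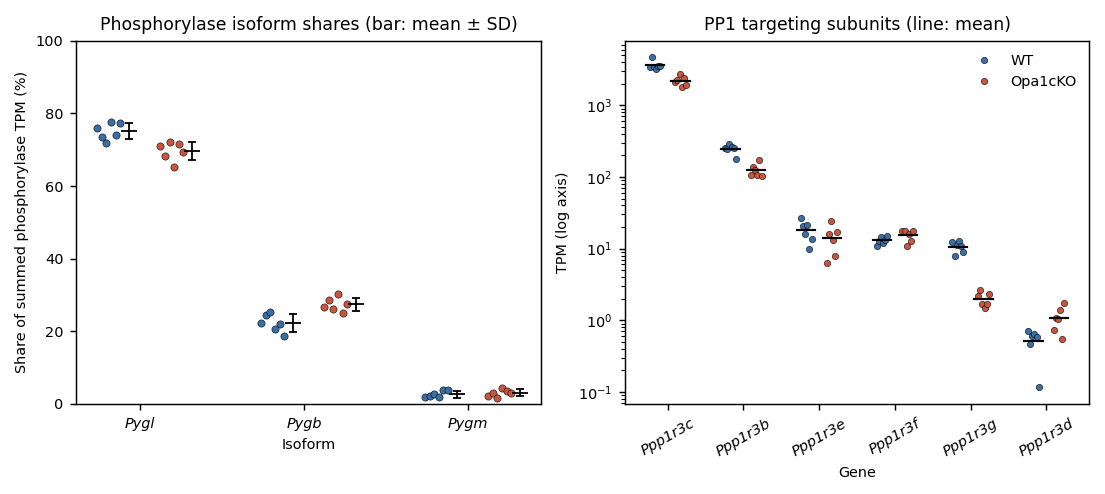
Left, share of each phosphorylase isoform in summed phosphorylase TPM (%, points are libraries, bars mean ± SD); right, TPM (log axis) of 6 phosphatase targeting subunits by library with lines at the means, WT blue and Opa1cKO red. Pygl holds 65.3 to 77.5% of phosphorylase TPM, and Ppp1r3g lies lower in every Opa1cKO library.

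Among catalytic subunits of protein phosphatase 1, Ppp1cc fell by 0.36 on the log2 scale (SE 0.0963, edgeR adjusted p = 0.0314), from 56.0 ± 5.24 to 43.6 ± 4.85 CPM, with overlapping ranges. That call was lost without any 1 of WT 1, WT 2, WT 3, WT 5, WT 6, Opa1cKO 4 or Opa1cKO 6 (log2 ratio -0.38 to -0.29, edgeR adjusted p up to 0.123) and without the 4 libraries of contradicted sex (-0.42, adjusted p = 0.153). Ppp1ca stood at -0.22 (adjusted p = 0.259). Epm2a, which encodes laforin, a phosphatase that removes phosphate from glycogen, fell from 54.0 ± 3.93 to 34.5 ± 2.89 CPM (log2 ratio -0.62, SE 0.0819, edgeR adjusted p = 0.000424), and its ranges did not overlap. Nhlrc1, the gene of its partner malin, was at 2.94 ± 0.829 and 3.34 ± 1.12 CPM (edgeR adjusted p = 0.922). The synthase kinase genes Gsk3a and Gsk3b stood at -0.14 and 0.03 (edgeR adjusted p = 0.285 and 0.862), and Akt1 and Akt2, which act on those kinases, at -0.06 and -0.19 (adjusted p = 0.755 and 0.238).

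Both genes that rose encode subunits of phosphorylase kinase. Phka1, the muscle-type alpha subunit on the X chromosome, had 32.2, 35.3, 35.8, 41.5, 39.2 and 35.1 CPM in WT and 45.1, 48.0, 44.6, 51.6, 50.03 and 55.8 CPM in Opa1cKO, without overlap (log2 ratio 0.45, SE 0.0859, edgeR adjusted p = 0.00518). Its paralog Phka2 was at 0.50 without passing (SE 0.161, edgeR adjusted p = 0.0672), with Opa1cKO 6 far above the rest at 72.0 CPM. The muscle-type catalytic subunit Phkg1 rose from 1.31 ± 0.407 to 2.63 ± 0.627 CPM (log2 ratio 0.99, SE 0.252, edgeR adjusted p = 0.0235). Its call was lost without WT 6, Opa1cKO 5 or Opa1cKO 6 (edgeR adjusted p = 0.0760, 0.0551 and 0.0593) and without the 4 libraries of contradicted sex (adjusted p = 0.117). The annotated span of Phkg1 also holds Chchd2, on the same strand at 67.4 CPM in WT and 77.0 CPM in Opa1cKO. On the opposite strand, Zbed5 and Sumf2 overlap 2827 and 630 bases of it. Zbed5 was at 5.12 and 7.985 CPM and Sumf2 at 9.81 and 10.4 CPM, all scaled to library totals without TMM. Since the strand setting of the counting is not given, both the low count of Phkg1 and its rise are uncertain. Phkg2 remained the main catalytic subunit per length, at 97.3 ± 0.870% and 94.5 ± 1.19% of the summed TPM of both, and stood at -0.14 (edgeR adjusted p = 0.401), with Phkb at -0.09 (adjusted p = 0.489).

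Genes that lead glucose out of glycogen or into neighbouring pathways mostly did not pass. The lysosomal glucosidase gene Gaa was at 97.3 ± 25.9 and 104 ± 27.4 CPM (edgeR adjusted p = 0.976), and the glycogen receptor gene Stbd1 at 14.3 ± 2.71 and 19.3 ± 4.72 CPM (adjusted p = 0.241). Slc37a4, the glucose 6-phosphate transporter of the endoplasmic reticulum, fell from 26.6 ± 2.57 to 19.1 ± 1.85 CPM without overlap (log2 ratio -0.45, SE 0.0982, edgeR adjusted p = 0.0107). That call was lost without WT 5 (-0.39, adjusted p = 0.0506) and without the 4 libraries of contradicted sex (-0.50, adjusted p = 0.0742). G6pc3, its partner phosphatase, was at 0.01 (edgeR adjusted p = 0.936) and Ugdh, which uses UDP-glucose for glycosaminoglycans, at 0.15 (adjusted p = 0.660). Of the sugar phosphate genes, Pgm1 stood at -0.34 and Galk1 at -0.25 (edgeR adjusted p = 0.124 and 0.452).

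**Figure D4:**
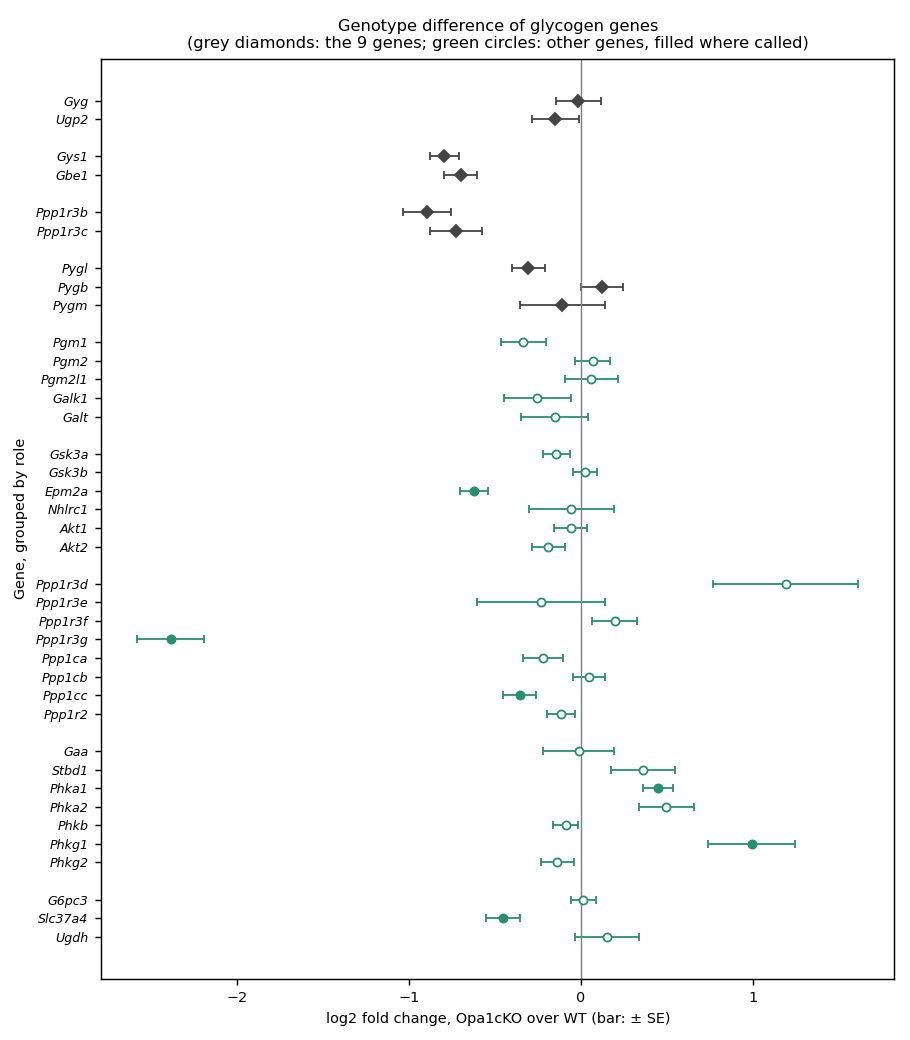
Fitted log2 fold change (Opa1cKO over WT, x axis) ± SE of the 9 genes (grey diamonds, no test shown) and of other glycogen genes tested (green circles, filled where edgeR's adjusted p was below 0.05), grouped by role. Filled circles lie left of 0 for Epm2a, Ppp1r3g, Ppp1cc and Slc37a4 and right of 0 for Phka1 and Phkg1.

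Sex was a contrast that the choice of genes did not use. For the genotype by labelled sex term none of the 9 passed (edgeR, 0% of all genes tested passed). An unadjusted p under 0.05 was found in 2, Gyg and Ugp2, and DESeq2 gave 0 with 2 unadjusted. The log2 difference, labelled male minus labelled female, was 0.62 for Gyg (SE 0.202, edgeR adjusted p = 0.797). For Ugp2 it was 0.53 (SE 0.237, edgeR adjusted p = 0.797). With sex from the reads, 0 passed and 0 had an unadjusted p under 0.05. Gyg then stood at 0.39 and Ugp2 at 0.40 (edgeR unadjusted p = 0.141 and 0.161). For labelled sex itself 0 passed and 0 were under 0.05 unadjusted, in edgeR and in DESeq2 alike (0% of all genes passed). WT 5 and WT 6, the WT libraries labelled male, are female by reads, and WT 4, labelled female, is male. A term of labelled sex therefore does not separate the sexes in WT, and nothing on sex is read from it. With sex from the reads, 0 of the 9 passed (0.0394% of all genes did), and Pygm alone had an unadjusted p under 0.05, at -0.59 for male over female (SE 0.253, edgeR adjusted p = 0.711). The only male WT library by reads is WT 4, so these terms rest on few animals.

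Relations among the 9 genes were also computed within each genotype, over 36 pairs and 72 relations of log2 CPM in all. None passed after Benjamini-Hochberg adjustment (smallest adjusted p = 0.1, exact permutation) and 10 had an unadjusted exact p under 0.05. The smallest p seen was 0.00278 (exact permutation, two-sided). With 6 libraries even the smallest possible p is too large for a single relation to pass over 72, so the count of 0 says little. Gyg, Ugp2 and Gbe1 had positive r with each other over the 6 libraries of each genotype. After removing each genotype's mean, r was 0.885 for Gyg and Ugp2, 0.811 for Gyg and Gbe1 and 0.828 for Ugp2 and Gbe1. Without the 2 libraries farthest from the median of Gyg, r of Gyg and Ugp2 was 0.324 in WT and 0.562 in Opa1cKO. Without the 2 farthest from the median of Ugp2, r of Ugp2 and Gbe1 was 0.456 in WT and -0.0154 in Opa1cKO. These positive values thus rest in part on a few libraries. Gyg and Gbe1 reached the smallest p in WT (Pearson r = 0.965, exact permutation p = 0.00278, adjusted p = 0.1; Spearman rho = 0.943, exact p = 0.0167, adjusted p = 0.400), with r = 0.911 without the 2 libraries farthest from the median of Gyg. In Opa1cKO the same pair had r = 0.656 (exact permutation p = 0.161, adjusted p = 0.446; rho = 0.486, exact p = 0.356, adjusted p = 0.796) and r = -0.817 without 2, so the sign there rests on those libraries. Ugp2 and Pygm reached it in Opa1cKO with opposite sign (r = -0.912, exact permutation p = 0.00278, adjusted p = 0.1; rho = -0.943, exact p = 0.0167, adjusted p = 0.400), with r = -0.866 without 2. Gys1 ran against Gbe1 over the 6 Opa1cKO libraries (Pearson r = -0.959, exact permutation p = 0.00556, adjusted p = 0.133; Spearman rho = -0.943, exact p = 0.0167, adjusted p = 0.400), with r = -0.821 without the 2 libraries farthest from the median of Gys1. Over the 6 WT libraries the same pair gave r = -0.741 (exact permutation p = 0.0917, adjusted p = 0.440; rho = -0.829, exact p = 0.0583, adjusted p = 0.516) and r = -0.516 without 2. Both genes were lower in Opa1cKO, while r was negative within each genotype without passing adjustment.

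The genes whose levels ran closest to each of the 9 over the 12 libraries were ranked by Pearson r of log2 CPM among 11812 genes, as a description. The genes closest to the 4 lower genes were themselves lower in Opa1cKO. For Gys1 the closest were Smtnl2, the lactate exporter gene Slc16a3 and the peptide hormone gene Adm (r = 0.982, 0.977 and 0.974; 0.733, 0.685 and 0.503 after removing each genotype's mean), and for Gbe1 they were Ccni, Samd9l and the mitophagy receptor gene Bnip3 (r = 0.982, 0.982 and 0.979; 0.857, 0.875 and 0.819 after removal). Ppp1r3b ran with the amino acid transporter gene Slc38a4, with Ndrg1 and with Flrt3 (r = 0.958, 0.956 and 0.952; 0.853, 0.794 and 0.748), and Ppp1r3c with Tceal1, Slc15a5 and Samd9l (r = 0.978, 0.974 and 0.969; 0.929, 0.898 and 0.892). These r values contain the shared genotype difference: Adm, for one, had a mean of 132.5 CPM in WT against 16.5 CPM in Opa1cKO.

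The other 5 genes ran with genes that differed little between genotypes, apart from those of Pygl. Gyg was closest to Dnajc9, Smndc1 and Hprt (r = 0.956, 0.938 and 0.934), Ugp2 to Tmem70, Hmgn1 and Cnih1 (r = 0.978, 0.973 and 0.968), Pygb to Chid1, Pomk and Gpt2 (r = 0.925, 0.918 and 0.904), and Pygm to Ccdc114, Ttc16 and Tbc1d4 (r = 0.926, 0.896 and 0.893). All 12 of these genes had a log2 ratio between -0.21 and 0.27. Pygl was closest to Trp53rka, Ly6c1 and Ly6a (r = 0.956, 0.927 and 0.925), of which Ly6c1 had a mean of 27.3 CPM in WT against 8.99 CPM in Opa1cKO. The points share their library, depth and RNA composition, and no p is given for them. Summed neutrophil markers, a cell type rich in Pygl, were at 0.282 to 25.4 CPM in WT and 0.548 to 11.5 CPM in Opa1cKO, highest in WT 2 and Opa1cKO 6, where Pygl was at 112 and 102 CPM.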

How the data were processed

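RNA was measured in the nucleus pulposus of 6 WT and 6 Opa1cKO mice, 1 library each, prepared by a stranded, ribosome-depleting protocol (input 50 ng, 14 PCR cycles), per the labels' protocols. The authors deposited raw read counts for 32285 genes and TPM values (length-scaled, with the same sum in every library) for 32128 symbols, of which 29631 matched the count table. Reads were aligned with STAR 2.7.11b to mm10, per the submitters' processing notes; for the counter, its annotation and its strand setting nothing is given in the sources used here. All 9 genes were in both tables. Positions came from GENCODE M21 of the same assembly.

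The genotype comparison used edgeR 4.0.16 under R 4.3.3 on the deposited counts. Normalization was TMM, genes entered by filterByExpr (minimum count 10), and genotype was fitted beside labelled sex with the robust quasi-likelihood method over all 12 libraries. P-values were adjusted by Benjamini-Hochberg over 15229 genes and called below 0.05. Library totals of 37268242 to 56618266 counts set the depth, and PCR copies cannot be told from molecules. Relations among the 9 genes were added after the data were seen. Alternatives were no sex term, sex from sex-linked reads, the replicate number as a block, DESeq2 1.42.0, voom with sample weights from limma 3.58.1, RLE or no scaling factors, 2 other filters, TPM with a pseudocount of 1 or 0.1, and single libraries left out. Fitting was tested on simulated data.

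The genes, the list of other glycogen genes and the tests were chosen with earlier results of these data known. Named were the 9 genes, Opa1, every called gene of the list, up to 3 more per role by smallest p, and the 3 genes closest to each of the 9. Gaa, Phkb, Nhlrc1, Gsk3b and Ppp1r3e were named outside this rule, after their values were seen. Some genes of the list count in its totals but are not reported here by name. Replicates are separate mice.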

Additional observations from a re-analysis of the deposited data

Results flagged for a closer look

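Among 58 groups of 6 libraries, 7 had a library far from the other 5, where chance alone marks about 5% of groups. Ppp1r3b was at 242 CPM in WT 6, below the other WT libraries, and Pygb at 19.7 CPM in Opa1cKO 5, below the other Opa1cKO libraries. Gsk3a stood high in WT 1, at 107 CPM, and in Opa1cKO 3, at 92.1 CPM. Ppp1ca was at 154 CPM in WT 1, Phka2 at 72.0 CPM in Opa1cKO 6 and Ugdh at 387 CPM in WT 2, each above the rest of its genotype.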

How the results depend on the processing

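The log2 fold changes of Gys1, Gbe1, Ppp1r3b, Ppp1r3c and Pygl were negative in all 24 alternatives run, ranging from -0.85 to -0.76, -0.84 to -0.63, -1.06 to -0.75, -0.90 to -0.63 and -0.37 to -0.23. Without the 4 libraries of contradicted sex, 325 genes were called, among them 2 of the 9 genes and 3 other glycogen genes; fewer libraries enter that fit. With 1 library left out, 819 to 1995 genes were called, 819 without Opa1cKO 6 and 973 without WT 6, with 4 to 5 of the 9 genes and 4 to 8 other glycogen genes (4 without WT 5, WT 6 or Opa1cKO 6). DESeq2 called 9 other glycogen genes, Ppp1r3d and Phka2 among them. The replicate numbers did not pair the libraries: same-numbered libraries had deviations correlated above 0.1 in 1 of 6 pairs and best with their own number in 0 of 6. A replicate block gave 1269 called genes, 4 of the 9 and 6 other glycogen genes. On CPM in place of TPM, which leaves gene length in, the phosphorylase shares were 81.7% (WT) and 77.2% (Opa1cKO) for Pygl, 16.9% and 21.2% for Pygb and 1.38% and 1.57% for Pygm. Pygm rests on at most 131 counts per library, which limits its precision.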
